A study of Mus musculus with 13 samples.

Results

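The 10 genes followed here mark horizontal and amacrine cells of the retina or serve in their specification and signalling. They are the transcription factor genes Ptf1a, Tfap2a, Tfap2b, Prox1, Onecut1 and Onecut2, and the GABA and glycine genes Gad1, Gad2, Slc32a1 and Slc6a9. The 10 were given as a list of names, with no threshold on a measured value, but chosen with earlier results of these data known. They were matched on the gene names of the authors' deposited table. All 10 of 10 were found among the 35734 genes of that table and all 10 passed the filter on low counts, among 15595 genes tested. RNA-seq was made from CD1 mouse retina of postnatal day 0. Dissociated cells were transfected with GFP alone (4 control libraries) or with Ikzf1-IRES-GFP (4 Ikzf1 libraries), cultured for 9 h, and sorted for GFP, so both groups carry GFP and both went through transfection and sorting. Each control replicate held 400000 cells and each Ikzf1 replicate 300000, and the labels call the replicates biological. The labels name the sorted cells retinal progenitor cells. The promoter of these constructs and the number of animals behind a replicate are not given in the sources used here. The product of Ikzf1 is Ikaros, a DNA-binding zinc finger protein. The series' title asks about its family in temporal patterning, the order in which retinal progenitors make their cell types.

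Horizontal and amacrine cells are the inhibitory interneurons of the retina. Horizontal cells act on photoreceptor synapses in the outer retina, and amacrine cells act on bipolar and ganglion cells in the inner retina. In the mouse, horizontal cells are born before birth, among the early cell types, and amacrine cells over a longer period that reaches into the days around birth. Ptf1a, a basic helix-loop-helix factor that binds E-boxes, is needed for both cell types and acts downstream of Foxn4. Most amacrine cells release GABA or glycine. Gad1 and Gad2 encode the glutamate decarboxylases that make GABA, Slc32a1 the vesicular transporter that loads GABA and glycine into synaptic vesicles, and Slc6a9 a plasma membrane transporter that takes up glycine.

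Promoter sequence is shown for the GABA genes on chromosome 2 because Gad1 and Slc32a1 fell in the Ikzf1 libraries while their partner Gad2 did not pass the test. The RefSeq windows (GRCm38.p6, + strand, 5′ to 3′) hold 250 bases before the annotated start. They cover chr2:70561879-70562128 for Gad1 and chr2:158610508-158610757 for Slc32a1. For Gad2 the window was cut to the 128 bases of chr2:22622077-22622204 that precede the gene's start in the deposited table. The Gad1 window lies inside the span that the table gives that gene. Capitals mark the E-box letters CANNTG, which read the same on both strands.
Gad1: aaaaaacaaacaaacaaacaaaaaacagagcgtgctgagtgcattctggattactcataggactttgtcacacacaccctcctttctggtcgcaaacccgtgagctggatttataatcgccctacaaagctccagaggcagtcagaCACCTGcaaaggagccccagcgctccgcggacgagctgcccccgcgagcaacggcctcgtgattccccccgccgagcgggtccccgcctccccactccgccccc
Gad2: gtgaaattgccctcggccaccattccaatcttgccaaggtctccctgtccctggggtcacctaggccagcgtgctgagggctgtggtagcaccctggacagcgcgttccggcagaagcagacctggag
Slc32a1: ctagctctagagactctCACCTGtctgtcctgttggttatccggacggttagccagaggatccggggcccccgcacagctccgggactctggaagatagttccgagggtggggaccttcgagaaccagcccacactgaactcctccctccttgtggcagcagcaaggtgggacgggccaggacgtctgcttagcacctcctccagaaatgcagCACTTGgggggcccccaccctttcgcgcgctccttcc
Gad1 had 1 E-box match and Slc32a1 had 2. The Gad2 stretch shown had 0, and the complete Gad2 window had 1 match, 76 bases before the RefSeq start. E-box letters occurred in 66.2% of all 32851 RefSeq windows of 250 bases and in 7 of the 13 windows of the members, of which 9 matched by symbol. The Ikaros core letters TGGGAA, on either strand, occurred in 21.6% of all windows and in 3 of the 13, 1 each of Ptf1a, Tfap2a and Prox1. AP-2 letters GCCNNNGGC were found in 13.7% of all windows and in 1 of the 13 (Gad2, in the stretch shown and beyond it). The Onecut core letters ATTGAT were found in 6.72% of all windows and in 1 of the 13 (Slc6a9). These are letter matches in fixed windows, and no binding was measured for them here.

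The libraries held 21.4 to 30.5 M estimated read pairs. Ikzf1 itself rose from 74.8 ± 7.74 CPM (counts per 1 M reads, scaled by TMM) in the controls to 182344 ± 7339 (SD, n = 4 each) after its transfection, in accord with the labels. It took 15.9 to 17.2% of all reads of an Ikzf1 library, and its share moves with the group. Change was widespread: edgeR's quasi-likelihood test called 9212 of 15595 genes (59.1%) at an adjusted p under 0.05, 4567 higher (29.3%) and 4645 lower (29.8%). Without scaling factors the split was 2347 higher and 7741 lower, with a shift of the median gene by -0.21 on the log2 scale. Markers of the labelled cell type were present: the 15 progenitor markers summed to 2659 to 2810 CPM in the controls and to 2175 to 2243 in the Ikzf1 libraries.

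Of the 10 horizontal and amacrine cell genes, 5 fell in the Ikzf1 libraries (Gad1, Slc32a1, Prox1, Tfap2a and Slc6a9), 0 rose, and 5 did not pass the test (Ptf1a, Tfap2b, Onecut1, Onecut2 and Gad2). The 5 of 10 stand beside 29.8% of all tested genes called lower. Members called lower numbered 5 with DESeq2 (27.4% of all genes it tested), 4 with an offset for transcript length (25.5%), 7 with no scaling factors (49.6%) and 5 on log2 TPM with limma (44.8%). For 0 genes called higher, edgeR gave 1 (Tfap2b) at an unadjusted p under 0.05, and DESeq2 called 1, the same gene. In 4 of the 10 (Gad1, Slc32a1, Prox1 and Slc6a9) every Ikzf1 library lay below every control, which held in that direction for 26.6% of all tested genes, out of 53.1% whose groups did not overlap in either direction (26.4% higher). The median log2 fold change of the 10 was -0.15, against 0.00 for all tested genes. In the authors' deposited table, 4 of the 10 were lower at an adjusted p under 0.05 (all but Slc6a9 of the 5) and 0 higher, beside 21.0% of 19121 genes with an adjusted p called lower there, and 41.8% in either direction. Fewer cells of a type and less RNA per cell cannot be told apart in sorted bulk cells.

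**Figure D1:**
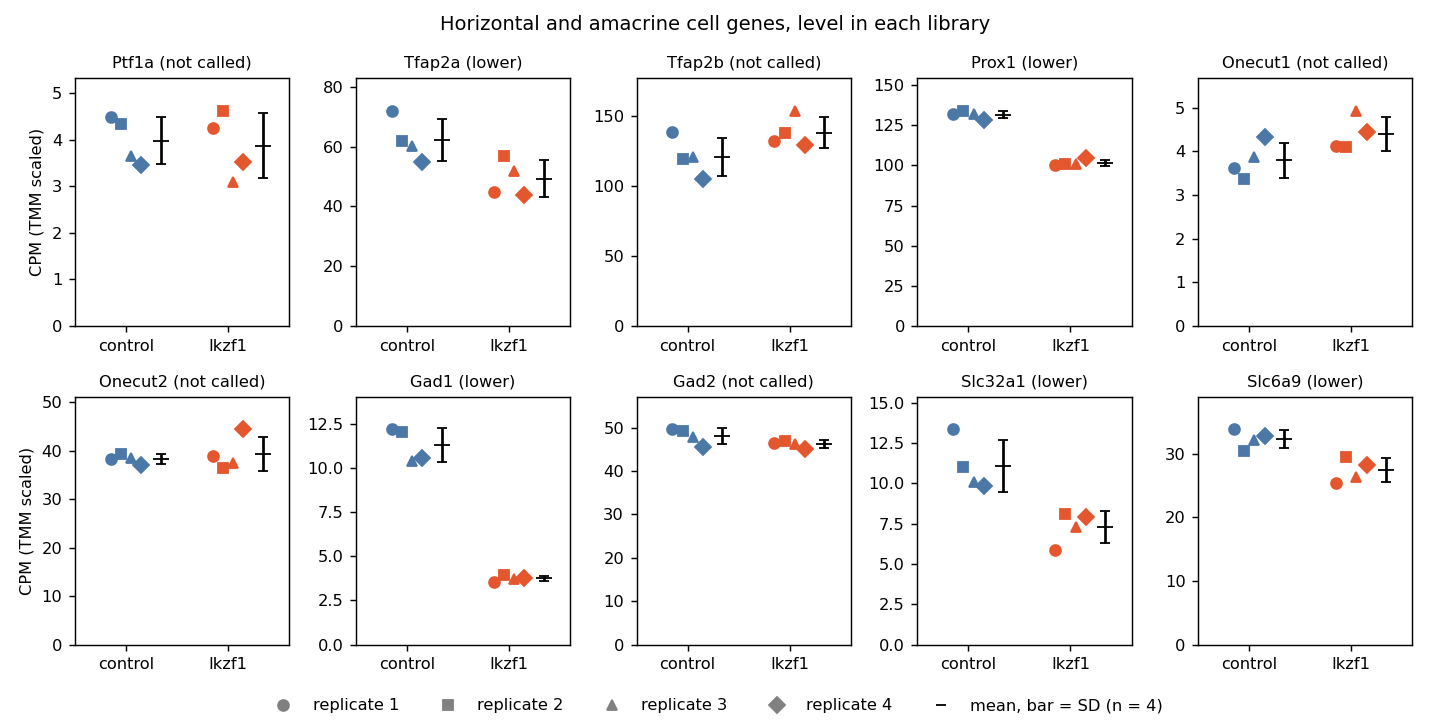
Level of each of the 10 genes in each library, in CPM scaled by TMM on linear axes that start at 0, with symbols for replicates and the mean with SD of 4 libraries beside them. The Ikzf1 libraries of Gad1 lie between 3.57 and 3.96 CPM, all below the controls at 10.4 to 12.2, while the points of Gad2, Ptf1a and Onecut2 overlap between the groups.

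Gad1 (ENSMUSG00000070880, GRCm38 chromosome 2, 70553072 to 70602014, + strand) changed most. Its level was 12.2, 12.1, 10.4 and 10.6 CPM in control replicates 1 to 4 and 3.57, 3.96, 3.72 and 3.76 CPM in Ikzf1 replicates 1 to 4. All 4 Ikzf1 libraries were low and close together, and the groups did not overlap. The mean went from 11.3 ± 0.94 to 3.76 ± 0.16 CPM (SD, n = 4 each), 3.01-fold lower, with a log2 fold change of -1.59 ± 0.115 (SE) and an adjusted p of 1.92e-12 (edgeR). Only 2.03% of tested genes had a lower log2 fold change. The values rest on 84 to 307 reads per library, and counting alone gives an error of 10.9% at 84 reads. The authors' deposited table gave -1.496 with an adjusted p of 1.77e-23.

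Gad2 (ENSMUSG00000026787, GRCm38 chromosome 2, 22622205 to 22693874, + strand), the other glutamate decarboxylase gene, stood at 49.7, 49.3, 47.9 and 45.7 CPM in the controls and at 46.4, 47.1, 46.3 and 45.0 in the Ikzf1 libraries. The groups overlapped and each was tight. Its log2 fold change was -0.06 with a 95% interval of -0.16 to 0.04 (adjusted p = 0.346, edgeR). So small a value moved with the processing. Its sign turned with an offset for transcript length (0.016). With no scaling factors it kept its sign at -0.27 (adjusted p = 5.74e-05, edgeR), where the median of all tested genes moved by -0.21. Within a library the balance of the pair shifted. There were 24.6, 24.4, 21.8 and 23.2 Gad1 reads per 100 Gad2 reads in the controls and 7.70, 8.42, 8.04 and 8.35 in the Ikzf1 libraries. No library of either group came near the other group. The difference of the log2 ratio was -1.53 (exact permutation test, two-sided, p = 0.0286, the smallest that 4 against 4 allows, and 0.0381 after adjustment over 4 pairs). All 4 pairs were chosen after the levels of their genes were seen. The p-values of their ratios, here and below, do not cover that choice and are descriptive.

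Slc32a1 (ENSMUSG00000037771, GRCm38 chromosome 2, 158610767 to 158615748, + strand), the vesicular transporter gene, was at 13.4, 11.04, 10.1 and 9.85 CPM in the controls and at 5.87, 8.10, 7.29 and 7.95 in the Ikzf1 libraries. Control replicate 1 was the highest and Ikzf1 replicate 1 the lowest, and the groups did not overlap. The mean went from 11.1 ± 1.61 to 7.30 ± 1.02 CPM (SD, n = 4 each), with a log2 fold change of -0.60 ± 0.118 (SE) and an adjusted p of 8.21e-05 (edgeR). Slc32a1 was 1.51-fold lower, and leaving out 1 library at a time gave log2 fold changes of -0.65 to -0.50. Its log2 fold change in the authors' deposited table was -0.57.

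Slc6a9 (ENSMUSG00000028542, GRCm38 chromosome 4, 117834506 to 117875198, + strand), the glycine uptake gene, was at 33.9, 30.5, 32.2 and 32.8 CPM in the controls and at 25.4, 29.5, 26.4 and 28.3 in the Ikzf1 libraries. The groups did not overlap, but Ikzf1 replicate 2 came close to control replicate 2. The log2 fold change was -0.24 ± 0.065 (SE), 1.18-fold lower, with an adjusted p of 0.00228 (edgeR). The call was lost with an offset for transcript length (-0.22, adjusted p = 0.081, edgeR) and was not made in the authors' deposited table (-0.21, adjusted p = 0.0941). Slc6a9 overlaps B4galt2 and Ccdc24 on the other strand, and strand use in counting is not given in the sources used here. The other 9 genes overlap no gene of the table.

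The balance of Slc32a1 and Slc6a9 was compared in the same way. Slc32a1 gave 39.5, 36.3, 31.2 and 30.0 reads per 100 Slc6a9 reads in the controls and 23.2, 27.4, 27.6 and 28.1 in the Ikzf1 libraries. The groups were apart by a narrow gap. The difference of the log2 ratio was -0.36 (exact permutation p = 0.0286, adjusted 0.0381). From summed TPM in place of reads it was -0.37 and missed the threshold (exact permutation test, adjusted p = 0.0762), and the adjusted p of the Gad1 to Gad2 and Tfap2a to Tfap2b ratios was then 0.0571 each.

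**Figure D2:**
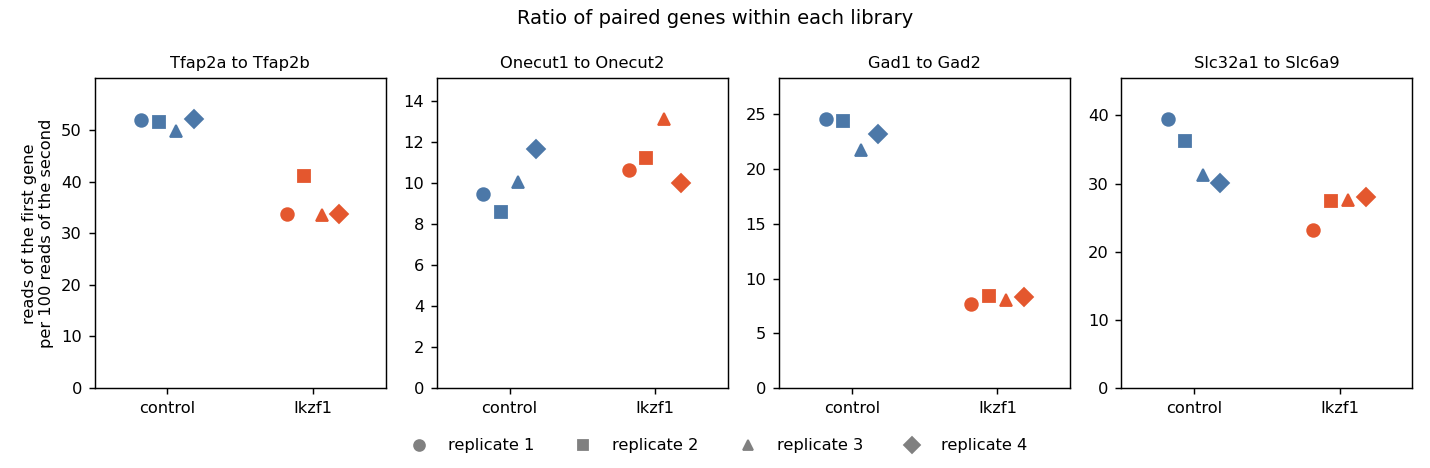
Reads of the first gene per 100 reads of the second within each library, for 4 pairs of members, on linear axes from 0, with symbols for replicates. The Gad1 to Gad2 values split into 21.8 to 24.6 in the controls and 7.70 to 8.42 in the Ikzf1 libraries, and the Onecut1 to Onecut2 values overlap.

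Among the transcription factors, Prox1 (ENSMUSG00000010175, GRCm38 chromosome 1, 190118035 to 190170714, - strand) had the narrowest spread. This homeobox gene is required for horizontal cell genesis and is also expressed in other retinal cells. Its level was 131.9, 134.1, 131.8 and 128.5 CPM in the controls and 100.1, 100.6, 100.6 and 104.3 CPM in the Ikzf1 libraries. Both groups were narrow and lay far apart. The mean went from 131.6 ± 2.31 to 101.4 ± 1.962 CPM (SD, n = 4 each), 1.30-fold lower, with a log2 fold change of -0.38 ± 0.042 (SE) and an adjusted p of 8.89e-09 (edgeR). In the authors' deposited table Prox1 had a log2 fold change of -0.36.

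Tfap2a (ENSMUSG00000021359, GRCm38 chromosome 13, 40715302 to 40738376, - strand) and Tfap2b (ENSMUSG00000025927, GRCm38 chromosome 1, 19208914 to 19238576, + strand) encode AP-2 factors of amacrine and horizontal cells. Tfap2a was at 72.0, 61.7, 60.2 and 54.9 CPM in the controls and at 44.7, 56.7, 51.7 and 43.7 in the Ikzf1 libraries. The groups overlapped, since Ikzf1 replicate 2 was above control replicate 4. Its log2 fold change was -0.34 ± 0.101 (SE, adjusted p = 0.0148, edgeR), and without Ikzf1 replicate 1 it was -0.30 and missed the threshold (adjusted p = 0.0569, edgeR). Tfap2b was at 138.5, 119.6, 120.7 and 105.4 CPM in the controls and at 132.2, 138.0, 154.1 and 129.5 in the Ikzf1 libraries. Control replicate 1 lay above 3 of the 4 Ikzf1 libraries, and the groups overlapped. The log2 fold change of Tfap2b was 0.19 with a 95% interval of 0.04 to 0.35 and an adjusted p of 0.0577 (edgeR). It was called higher by DESeq2 (0.20, adjusted p = 0.0108) and by edgeR without control replicate 1 (0.27, adjusted p = 0.000606). But it was -0.020 with no scaling factors and -0.061 on log2 TPM with limma. These settings moved the median of all tested genes by -0.21 and -0.22. The ratio of the pair does not depend on scaling. There were 52.0, 51.6, 49.9 and 52.1 Tfap2a reads per 100 Tfap2b reads in the controls and 33.8, 41.1, 33.6 and 33.8 in the Ikzf1 libraries. Every Ikzf1 library was below every control, with replicate 2 the highest of them. The difference of the log2 ratio was -0.54 (exact permutation p = 0.0286, adjusted 0.0381).

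Onecut1 and Onecut2, cut homeobox genes that act in early retinal progenitors, horizontal cells and ganglion cells, did not pass the test. Onecut1 (ENSMUSG00000043013, GRCm38 chromosome 9, 74861921 to 74891781, + strand) was at 3.62, 3.37, 3.87 and 4.32 CPM in the controls and at 4.13, 4.09, 4.93 and 4.43 in the Ikzf1 libraries. The groups overlapped through control replicate 4, and the log2 fold change was 0.21 with a 95% interval of -0.08 to 0.50 (adjusted p = 0.239, edgeR), or -0.0033 with no scaling factors. Onecut1 had 77 to 125 reads per library, and changes within its interval are not excluded. Onecut2 (ENSMUSG00000045991, GRCm38 chromosome 18, 64340020 to 64400987, + strand) was at 38.3, 39.3, 38.5 and 37.0 CPM in the controls and at 38.8, 36.5, 37.5 and 44.4 in the Ikzf1 libraries. Ikzf1 replicate 4 was the highest, and the other three lay among or just beside the controls. Its log2 fold change was 0.04 with a 95% interval of -0.08 to 0.16 (adjusted p = 0.586, edgeR), and it was -0.017 without Ikzf1 replicate 4 and -0.18 on log2 TPM. With no scaling factors it was -0.17 and called lower (adjusted p = 0.0186, edgeR). In that setting the median of all tested genes moved by -0.21. The ratio of the pair overlapped between the groups (log2 difference 0.18, exact permutation p = 0.229, adjusted 0.229).

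Ptf1a (ENSMUSG00000026735, GRCm38 chromosome 2, 19445663 to 19447501, + strand) was at 4.50, 4.34, 3.65 and 3.45 CPM in the controls and at 4.25, 4.62, 3.08 and 3.51 in the Ikzf1 libraries. Its groups overlapped over nearly their full range. The log2 fold change was -0.04 with a 95% interval of -0.37 to 0.28 (adjusted p = 0.845, edgeR). It rests on 77 to 113 reads per library, and its sign turned when single libraries were left out.

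**Figure D3:**
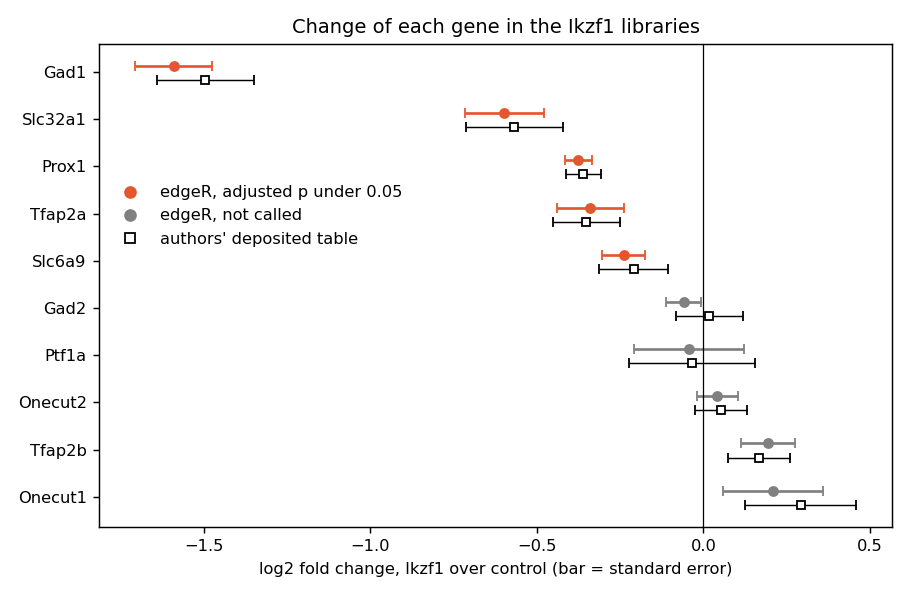
Log2 fold change of each gene, Ikzf1 over control, with its SE, from edgeR (filled circles, coloured where the adjusted p was under 0.05) and from the authors' deposited table (open squares). Gad1 at -1.59 and -1.496 stands apart from the other 9 genes, which lie between -0.60 and 0.29 in both sources.

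One control library moved with several of these genes. Control replicate 1 was the highest control for 7 of the 10 genes, against 29.7% of all tested genes. Control replicate 4 was the lowest control for 7 of the 10, against 22.3% of all tested genes. Leaving out 1 library at a time left 4 or 5 genes called lower and 0 or 1 called higher.

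Levels of different genes were compared as TPM, a share of transcripts that accounts for length. In the controls the order of mean TPM was Tfap2b (48.6), Tfap2a (43.6), Prox1 (36.4), Slc6a9 (22.9), Gad2 (19.2), Gad1 (8.14), Slc32a1 (7.92), Ptf1a (5.57), Onecut2 (4.49) and Onecut1 (1.88). The control values of 3 neighbouring pairs overlapped, Tfap2b with Tfap2a, Slc6a9 with Gad2 and Gad1 with Slc32a1. The other neighbours did not. Of all tested genes, 72.4% lay below Tfap2b and 16.7% below Onecut1 in control TPM, so the group spans low to fairly high levels. Ikzf1 held 170477 to 185944 TPM of an Ikzf1 library, which lowers the TPM of every other gene there. With Ikzf1 left out of the total, mean TPM in controls and Ikzf1 libraries was 8.14 and 2.89 for Gad1, 19.2 and 20.3 for Gad2, 48.6 and 56.8 for Tfap2b, and 36.4 and 29.5 for Prox1.

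For 6 of the 10 genes at least 2 transcripts each held 10% or more of the gene's TPM, and the share of the leading transcript was compared between the groups. None passed an exact permutation test, and the smallest p was 0.143 (Gad1, 0.857 after adjustment over the 6). The leading Gad1 transcript, ENSMUST00000140478.1, held 0%, 63.4%, 61.7% and 0% of the gene's TPM in the controls and 76.9%, 72.5%, 57.8% and 62.7% in the Ikzf1 libraries. The estimates thus split the controls into libraries with none and libraries near the Ikzf1 level. ENSMUST00000094934.10 was estimated at 6.35 and 5.50 TPM in control replicates 1 and 4, 1.37 in control replicate 2 and 0 in control replicate 3. In Ikzf1 replicates 1 to 4 it was at 0, 0, 0.583 and 0.451 TPM. Over all 8 libraries the mean share was 49.4% for ENSMUST00000140478.1 and 27.6% for ENSMUST00000094934.10. Whether the split of the controls lies in the assignment of reads to transcripts or in the RNA was not tested. The summed Gad1 level did not split the controls in this way. Slc6a9 had 3 transcripts of 10% or more. Its leading one, ENSMUST00000030269.13, held 39.5% ± 10.8 of the gene's TPM in control libraries, against 38.7% ± 1.64 with Ikzf1 (SD, n = 4 each).

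**Figure D4:**
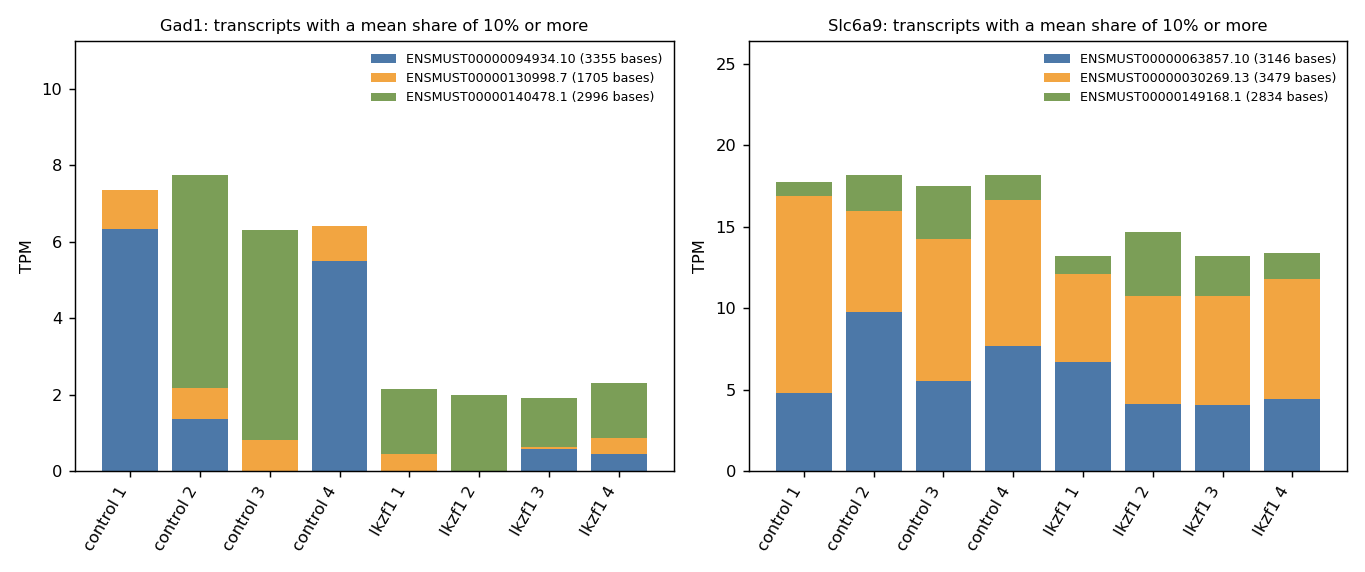
TPM of the transcripts of Gad1 and Slc6a9 that hold 10% or more of the gene's TPM on average, stacked for each library on linear axes from 0. The Gad1 stack is carried by ENSMUST00000140478.1 in control replicates 2 and 3 (5.58 and 5.48 TPM) and by ENSMUST00000094934.10 in control replicates 1 and 4, and it is low in all Ikzf1 libraries.

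Around these 10 genes, the other horizontal cell genes changed in both directions. Of 16 listed, 14 were tested, 6 rose, 8 fell and 0 were not called, beside 29.3% of all tested genes higher and 29.8% lower. The median log2 fold change was -0.28 against 0.00 for all tested genes. On log2 TPM 3 of the list were called higher, beside 1864 of all 15595 tested genes in that setting and 4567 in the main one. Neurofilament genes, which horizontal and ganglion cells share, split: Nefl fell from 118 ± 2.95 to 18.9 ± 1.82 CPM (-2.64 on the log2 scale) and Nefm by 1.26 on the log2 scale, whereas Nefh rose from 3.94 ± 0.928 to 9.75 ± 1.57 CPM (1.30). Sall3, a zinc finger gene needed for horizontal cell maturation, rose from 4.05 ± 0.602 to 12.8 ± 1.47 CPM (1.66). Onecut3, the third gene of the Onecut family, rose at a low level from 0.456 ± 0.118 to 0.977 ± 0.278 CPM (1.08), a call that was lost on log2 TPM. Calb1, the calcium-binding protein calbindin of horizontal cells, fell by 1.04, Barhl2 by 0.58, and the adhesion receptor genes Megf10 by 1.26 and Megf11 by 1.09 on the log2 scale. The Megf11 call was lost with the length offset and on log2 TPM. Isl1, a LIM homeobox gene, rose by 0.39 on the log2 scale, though the call was lost with no scaling factors and on log2 TPM. These settings moved the median of all tested genes by -0.21 and -0.22. Lhx1, a LIM homeobox gene of horizontal cells, was under the filter at 0.379 ± 0.130 and 0.444 ± 0.104 CPM. All errors are SD with n = 4 each and all calls are edgeR's, here and for the genes that follow.

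Of 38 other amacrine cell genes, 33 were tested, 12 rose, 10 fell and 11 did not pass, beside 29.3% of all tested genes higher and 29.8% lower. The median log2 fold change was 0.11, and on log2 TPM 5 were called higher, beside 1864 of all 15595 tested genes. Foxn4, the forkhead gene upstream of Ptf1a, fell from 25.5 ± 2.66 to 14.3 ± 1.67 CPM (-0.83, adjusted p = 5.97e-09, edgeR). Neurod4, a basic helix-loop-helix gene of amacrine fate, fell from 662 ± 60.5 to 410 ± 26.2 CPM (-0.69), while Neurod1 did not pass the test (-0.08, adjusted p = 0.256, edgeR). Prdm13, a downstream target of Ptf1a in amacrine cells, did not pass either (0.19, adjusted p = 0.137, edgeR). With no scaling factors, where the median tested gene moved by -0.21, Prdm13 was at -0.027. Without control replicate 1, where Prdm13 was highest, it was 0.29 and called higher (adjusted p = 0.00048, edgeR). Pax6, a homeobox gene of progenitors and amacrine cells, rose from 358 ± 6.63 to 446 ± 11.5 CPM (0.32), but was 0.016 and not called on log2 TPM. In that setting the median of all tested genes moved by -0.22. Tfap2c, another AP-2 gene, fell from 11.6 ± 0.647 to 7.34 ± 1.21 CPM (-0.66), as did Dlx1 (-0.72) and Meis2 (-0.56), both homeobox genes. Fezf1, a zinc finger gene, rose from 0.141 ± 0.103 to 3.53 ± 0.611 CPM. Ebf2 (1.32) and Bhlhe22 (0.77), transcription factor genes found in amacrine subtypes, rose as well. Slc5a7, the choline transporter gene of cholinergic neurons (0.86), Ppp1r17 (0.85) and Gbx2 (0.66) also rose, with calls that were each lost under at least 1 other setting. Tcf4 was not tested, because its transcripts could not be assigned to the gene.

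The other GABA and glycine genes numbered 35, of which 30 were tested, 7 rose, 10 fell and 13 did not pass, beside the same 29.3% and 29.8% of all tested genes. The median log2 fold change was -0.16, and on log2 TPM 4 were called higher, beside 1864 of all 15595 tested genes. Among plasma membrane transporters, Slc6a11, which takes up GABA, fell from 24.6 ± 2.29 to 14.1 ± 1.32 CPM (-0.81). Slc6a5, which like Slc6a9 takes up glycine, fell from 6.87 ± 0.207 to 2.71 ± 0.625 (-1.34). Slc6a13, a further GABA transporter named after its value was seen, did not pass (-0.77, adjusted p = 0.0693, edgeR). Of the receptor subunit genes, the 4 with the most change rose: Gabra4 from 1.30 ± 0.142 to 5.99 ± 0.876 CPM (2.21), Glra3 from 0.602 ± 0.158 to 1.81 ± 0.544 (1.598), Glrb from 4.31 ± 0.937 to 7.96 ± 1.06 (0.89) and Gabra2 from 19.8 ± 1.47 to 30.3 ± 3.87 (0.61). Gabbr1, a subunit of the metabotropic GABA receptor, also named after its value was seen, fell (-0.60). Gphn, which encodes the scaffold gephyrin that anchors GABA and glycine receptor channels, fell from 45.6 ± 1.84 to 27.1 ± 1.16 CPM (-0.75). Gldc, of glycine breakdown, fell by 0.77 and Shmt1, of serine and glycine conversion, by 0.61 on the log2 scale.

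**Figure D5:**
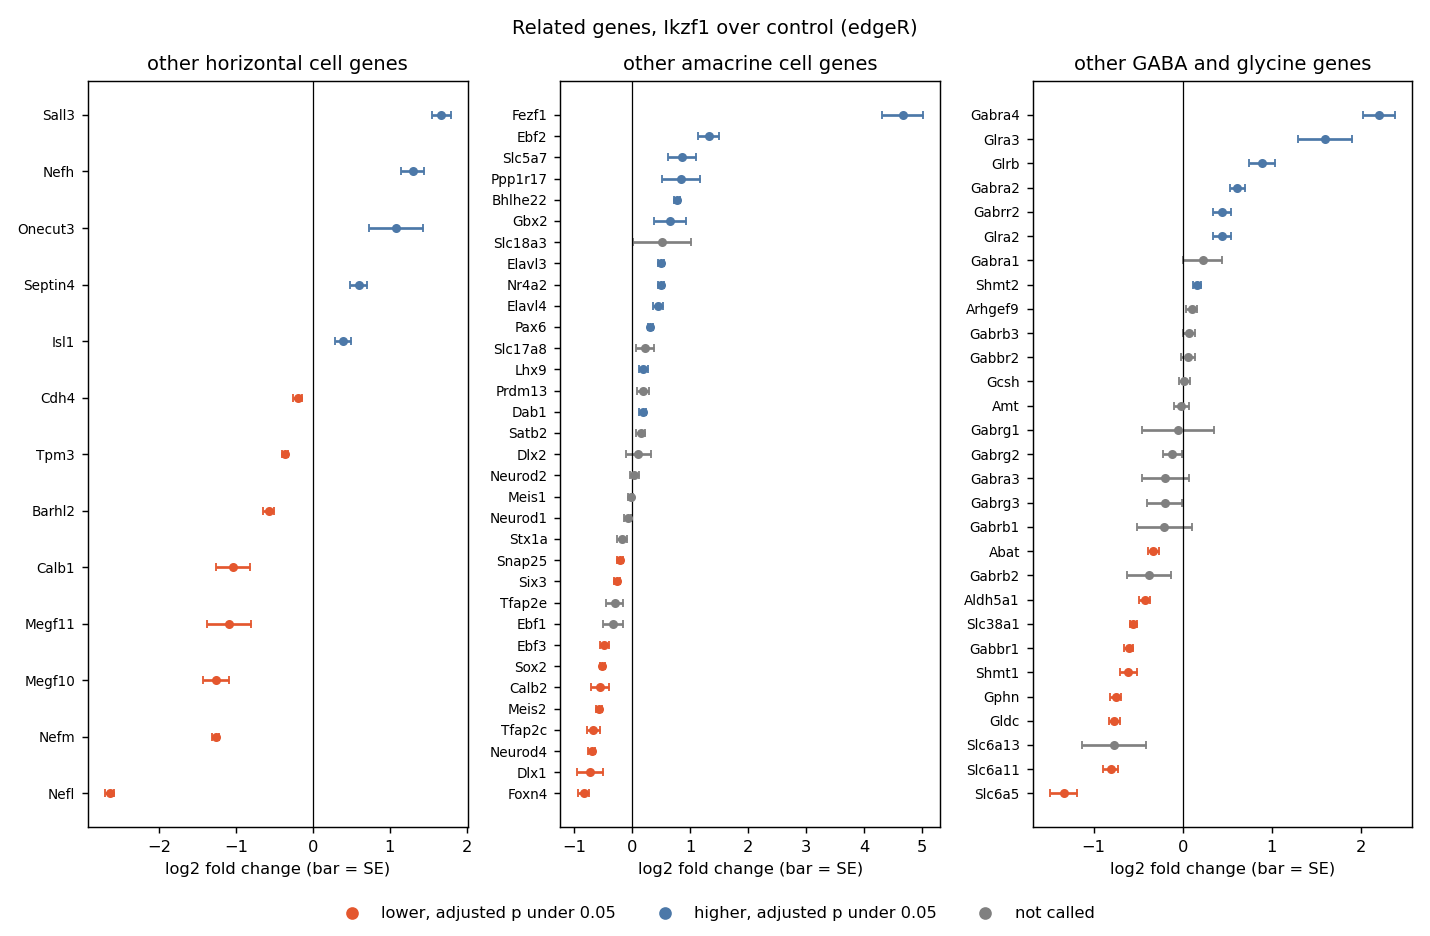
Log2 fold change with SE (edgeR) of tested genes of the other horizontal cell, other amacrine cell and other GABA and glycine lists, sorted, with colour for the call. All 3 lists hold genes called in both directions, from Nefl at -2.64 to Fezf1 at the top of the amacrine list.

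Markers of other cells moved with the groups too, and their part in the changes of the 10 genes was not tested. The counts stand beside 29.3% of all tested genes called higher and 29.8% called lower. Of 11 photoreceptor markers tested, 0 rose and 9 fell, with summed levels of 806 to 935 CPM in the controls and 465 to 526 in the Ikzf1 libraries, Prdm1 (-1.23) and Rcvrn (-1.15) the most. Of 15 progenitor markers, 3 rose and 7 fell, led by Nes (-1.72). Of 13 ganglion cell markers, 7 rose and 5 fell, with sums of 539 to 565 and 310 to 328 CPM, and Sncg rose from 2.66 ± 0.493 to 21.5 ± 2.69 CPM (3.01) while Nefl fell. Of 10 Müller glia markers, 1 rose and 7 fell, with sums of 1071 to 1172 and 898 to 940 CPM, led by Sox9 (-1.95) and Hes1 (-1.16). Hes1 is also on the list of progenitor markers. Of 6 bipolar cell markers, 3 rose and 1 fell, with sums of 33.7 to 37.7 and 46.5 to 51.7 CPM, led by Grik1 (1.10) and Cabp5 (-0.76). Of 5 vascular markers, 0 rose and 2 fell, Kdr (-1.02) and Tek (-1.19), with sums of 405 to 476 and 208 to 248 CPM. Kdr is also expressed by retinal progenitors. The rest were low. Astrocyte markers summed to 3.55 to 4.67 CPM in the controls and 2.85 to 3.36 in the Ikzf1 libraries (0 higher and 1 lower, Pax2, of 3), microglia markers to 3.72 to 5.35 and 3.32 to 4.62 (0 and 1, Tmem119, of 4), pigment epithelium markers to 6.97 to 8.11 and 4.595 to 6.56 (0 and 1, Rgr, of 4), and lens markers to 0.219 to 0.693 and 0.426 to 0.936 (0 and 0 of 1). The Tmem119 and Rgr calls were lost under several other settings. Rpe65 of the pigment epithelium and Cryga and Crygs of the lens were at 0 in all 8 libraries.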

How the data were processed

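RNA was measured in 8 libraries, grouped by the sample titles. Per the labels, the authors made the files with Salmon, with mm9 and mm10 among the builds of the submitters' processing notes. Each deposited file held estimated counts of read pairs and TPM per transcript. Its version, index and strand setting are not given in the sources used here. The deposited comparison table, made with DESeq2 per the labels, gave the authors' mean signal as normalised counts, log2 fold changes with standard errors, a Wald score and p-values with their adjusted values. The table names genes and the transcript files do not.

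The authors' mean normalised counts therefore served to assign transcripts to genes, by runs of up to 60 neighbouring transcripts matched within a relative tolerance of 5e-09. Among 16815 genes whose mean reached 5, 16746 were joined, 68 with several matching runs and 1 with none were left out, and 56 still found a run after their means were moved slightly. Fold changes played no part. The joined genes held 99.2 to 99.3% of a library's reads. A simulation took these joined runs as the truth and built the means with the formula and library factors of the join. In it 99.6% of 16674 genes found transcripts, of which 100% were the true ones. It cannot show whether the runs joined in the real data are right.

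Gene sums of the estimated counts were rounded, filtered with filterByExpr, scaled by TMM and tested with edgeR 4.0.16 (robust quasi-likelihood test, two-sided, no covariate), with Benjamini-Hochberg adjustment over all 15595 tested genes. A standard error is the size of the fold change (log2) over the root of its F value, and a 95% interval uses the normal quantile. The deposited TPM served for levels between genes and for transcript shares (exact permutation tests over libraries, two-sided). In simulated counts (15447 genes), edgeR recovered 86.7% of 98 genes changed by 0.5 and 99.0% of 99 changed by 1 on the log2 scale, with 5.18% false calls. DESeq2 recovered 77% and 95%, with 7.53% false calls. The simulation changed few genes, gave all genes the same dispersion and held Ikzf1 at its mean over all libraries. In the data 59.1% of genes were called and Ikzf1 took 15.9 to 17.2% of reads in the Ikzf1 libraries only. The simulated rates need not hold there. DESeq2 1.42.0, limma 3.58.1 on log2(TPM + 0.1), other scalings, a length offset, no filter, a replicate block and leaving out each library were the alternatives. The ratios of 4 member pairs were chosen after the data were seen.

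The members and lists were chosen with earlier results of these data known. Named besides the members were Ikzf1, 12 related genes whatever their result, up to 8 further genes of each of 3 related lists (called, at least 1 CPM in a group, largest change), and up to 2 of each of 10 marker lists. Some genes that this rule names are not reported here. Coordinates are the deposited table's, 1-based. The CUT&RUN peak lists (mm9) were not used here, since no mm9 annotation was at hand.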

Additional observations from a re-analysis of the deposited data

Results flagged for a closer look

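In 9 of 120 groups of 4 libraries examined, 1 library stood apart from the other three by more than Dixon's limit. Chance flags about 1 group in 20, and 5.22% of the groups of all tested genes were flagged. Among the members this was Prox1, whose Ikzf1 replicate 4, at 104.3 CPM, lay above the others at 100.1 to 100.6 (gap of 0.865 of the range). Among related genes, control replicate 1 stood apart in several. Prdm13 was at 53.2 CPM there against 40.0 to 41.1 (0.922), Neurod1 at 359 against 303 to 310 (0.882), and Slc6a5 was low at 6.57 against 6.96 to 7.002 (0.908). Nefh was high in control replicate 4, at 5.33 against 3.33 to 3.58 CPM (0.874), and Gldc in Ikzf1 replicate 1, at 94.3 against 80.2 to 81.7 CPM (0.893). Of the markers, Prdm1 was high in control replicate 1 (219 against 183 to 187 CPM, 0.890) and in Ikzf1 replicate 4 (92.6 against 78.04 to 80.04 CPM, 0.863), and Tek was low in control replicate 2 (0.614 against 0.835 to 0.875 CPM, 0.847).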

How the results depend on the processing

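Gad1, Slc32a1 and Prox1 kept direction and call under all 16 other settings. The cause of the shifts that follow was not tested. Members called higher numbered 1 in place of 0 with DESeq2, with the replicate block and without control replicate 1, each time Tfap2b: 0.20 (adjusted p = 0.0108) with DESeq2 and 0.20 (0.00833, edgeR) with the block. With no scaling factors, log2 fold changes were -0.020 for Tfap2b, -0.0033 for Onecut1, -0.17 for Onecut2 and -0.27 for Gad2 (both now called lower), and -0.027 for Prdm13; on log2 TPM with limma they were -0.061 for Tfap2b and -0.18 for Onecut2. These settings moved the median of all tested genes by -0.21 and -0.22, and genes lower rose from 29.8% to 49.6% and 44.8%. The length offset gave 0.016 for Gad2 and -0.22 for Slc6a9 (adjusted p = 0.081, edgeR), and left 4 members lower, beside 25.5% of all genes. On log2 TPM, 3 horizontal, 5 amacrine and 4 GABA and glycine genes were called higher, beside 1864 of all 15595 tested genes. Leaving out each library gave 0 to 1 members higher, 4 to 5 lower and 8619 to 9014 genes called, and log2 fold changes of -0.13 to 0.059 for Ptf1a, -0.40 to -0.26 for Tfap2a, 0.13 to 0.27 for Tfap2b and -0.017 to 0.085 for Onecut2. Transcript shares moved by -3.06 to 1.75 percentage points for Prox1, -9.54 to 1.36 for Gad2, -3.97 to 4.26 for Slc6a9 and -5.90 to 0.61 for Tfap2a, and the second Slc6a9 transcript by -1.07. Pair ratios kept their direction without each library, where 3 against 4 allows no exact p under 0.0571. As summed TPM, the log2 differences of the 3 ratios that passed were -0.53, -1.57 and -0.37, with adjusted exact permutation p of 0.0571, 0.0571 and 0.0762. Deviations from the group means, over 10002 genes, correlated at -0.262 to 0.0945 between same-numbered libraries of the 2 groups. Between differently numbered libraries they correlated at -0.215 to 0.258. These values gave no sign that the numbers pair the libraries, but cannot exclude it. The replicate block called 8893 genes in place of 9212. Depth limits Ptf1a, Onecut1 and Gad1 most, with 77 to 307 reads each, and intervals there cover no error of the transcript assignment.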
